A study of Mus musculus with 6 samples.

Results

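Nucleotide synthesis was examined through 9 of the 27179 genes in a table from B16F10 cells, an established line of mouse melanoma cells labelled as wild type. The members were Cad, Dhodh, Umps, Ctps1, Cmpk1, Uck2, Tyms, Rrm1 and Rrm2, taken by gene symbol. This list was chosen from the authors' own comparison of the treatments, by its value for Dhodh, and that value is not reported here. RNA came from 3 libraries of cells given olive oil (OLO) and 3 of cells given ozonated olive oil (OZO), both at 0.01% for 6 h, and all from the same wild-type line. The only value used was the authors' mean of log2 CPM (counts scaled to a common library size) for each gene over all 6 libraries, OLO and OZO together. Whether any of these genes differed between OLO and OZO, and how far the libraries spread around each mean, was therefore not analysed here. The labelled cell type was checked against its markers, and all 7 melanocyte genes looked up had at least 1 CPM, from Sox10 at 109 CPM to Dct at 7052 CPM. Among 5 markers of other cells, Krt5 had no reads and the highest, Col1a1, had an authors' mean of 1.70 CPM.

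Dividing cells build pyrimidines from glutamine, bicarbonate and aspartate. CAD carries out the opening steps in the cytosol, DHODH oxidises dihydroorotate on the inner mitochondrial membrane and passes the electrons to ubiquinone, and UMPS closes the route to UMP. UMP is then phosphorylated by CMPK1, and CTP synthase turns UTP into CTP, whereas UCK2 salvages uridine and cytidine. Ribonucleotide reductase, made of the large subunit RRM1 and the small subunit RRM2, supplies deoxyribonucleotides, and thymidylate synthase (TYMS) makes dTMP. DHODH is also studied as a mitochondrial defence against ferroptosis, which is the cell death that the study followed.

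All 9 members were expressed at 1 CPM or more, as were 11878 of the 27179 genes (43.7%). Not divided by length, their levels ran from 10.3 CPM for Dhodh to 422 CPM for Rrm1, and the median member had 92.7 CPM, against a median of 31.6 CPM for the genes at or above 1 CPM. Above that median lay 8 members, and Dhodh lay below it. Per kilobase of coding sequence, the median was taken over those of these genes with an annotated coding sequence. On that scale 7 members lay above the median, since Cad, at 21.3 CPM per kilobase against a median of 23.5, was then also below it. These levels rested on many reads. The geometric mean library size, worked out from the genes without reads, was 19641945 reads. A level of 1 CPM therefore equals 19.6 reads. Dhodh then had a geometric mean of 201 reads per library and Rrm1 of 8293 reads.

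**Figure D1:**
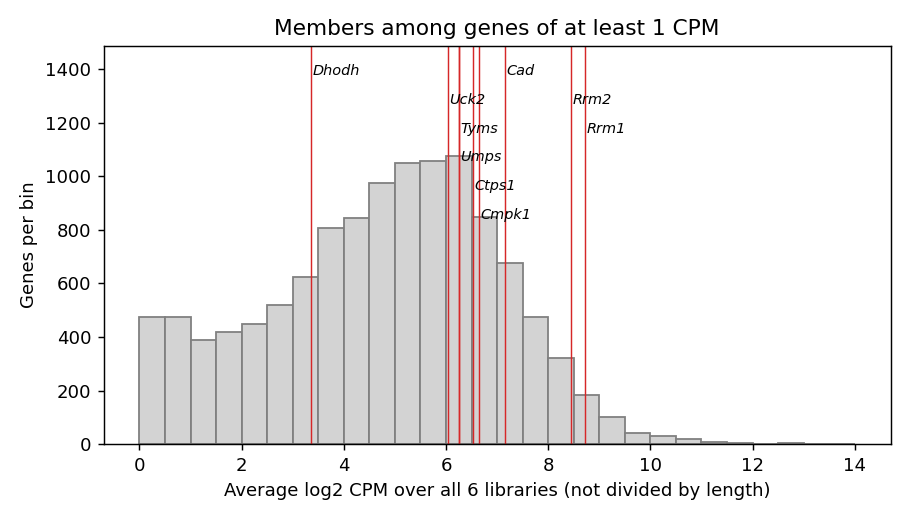
Distribution of the authors' mean log2 CPM over all 6 libraries for the 11878 genes of at least 1 CPM (grey bars, number of genes per bin), with each member as a red line. Dhodh lies at 3.36, and the other members lie between 6.04 (Uck2) and 8.72 (Rrm1).

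A long transcript gives more reads than a short one, so genes were compared per kilobase of the longest annotated transcript. On this scale Rrm2 was the highest member and Dhodh the lowest, with 59.2-fold between them. The distance was 34.6-fold per kilobase of coding sequence and 77.9-fold with all exons joined. The ranks of Rrm2 (1), Rrm1 (2) and Dhodh (9) held on all 4 length scales tried, namely the longest transcript, the longest transcript with a coding sequence, the coding sequence and all exons joined. For Rrm1 the longest transcript is a model of 1 exon and 5475 bases that holds no coding sequence, and its longest coding transcript has 19 exons and 3997 bases. The joined exons of Rrm1, with 11012 bases, include this model too. For the other 8 members the longest transcript and the longest coding transcript are the same. The other 6 members changed places among themselves with the scale, so no order is read from them. Because the mean is a single value per gene, no neighbours in the order could be tested against the spread between libraries.

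**Figure D2:**
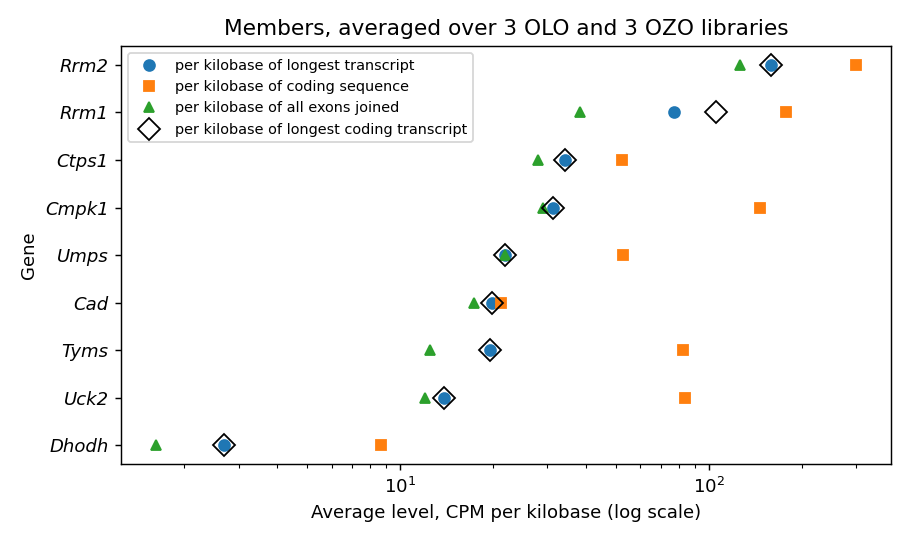
Average level of each member in CPM per kilobase (log scale), from the authors' mean over 3 OLO and 3 OZO libraries, divided by the length of the longest transcript (circles), of the coding sequence (squares) of all exons joined (triangles) or of the longest coding transcript (open diamonds). Rrm2 and Rrm1 lie highest and Dhodh lowest with each divisor, and the distance between the symbols of a gene shows how much the divisor matters.

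Within the de novo route, Dhodh had the lowest mRNA level. Cad, which encodes the enzyme of the opening steps, lies on chromosome 5 of GRCm38 (mm10) from 31054780 to 31078479 on the plus strand, and its longest transcript has 7137 bases. Its authors' mean of 142 CPM became 19.9 CPM per kilobase. Dhodh lies on chromosome 8 from 109591343 to 109608673 on the minus strand and had 2.69 CPM per kilobase over a transcript of 3807 bases. Umps, on chromosome 16 from 33954782 to 33967038 on the minus strand, had 21.9 CPM per kilobase. The ratio of Cad to Umps was 0.912 on this scale and 0.404 per kilobase of coding sequence.

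The gap between Dhodh and its neighbours in the route depended on the length used. Per kilobase of the longest transcript, the level of Cad was 7.40-fold and that of Umps 8.11-fold the level of Dhodh. Per kilobase of coding sequence these ratios were 2.46 and 6.10, since Dhodh has a coding sequence of only 1185 bases and Cad one of 6675 bases. With all exons joined, they were 10.7 and 13.5. In the mean over OLO and OZO, Dhodh was thus the lowest of the route on each of the scales, by an amount that varied. The list was chosen for a value of Dhodh that compares these groups, and its level and these ratios within OLO or OZO alone were not analysed here.

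Cmpk1 and Ctps1, whose enzymes follow UMP, stood above Dhodh and above the genes Cmpk2 and Ctps2. Cmpk1, the cytosolic UMP and CMP kinase, lies on chromosome 4 from 114959336 to 114987241 on the minus strand and had 31.4 CPM per kilobase. Cmpk2, a mitochondrial kinase of the same name, had 0.912 CPM per kilobase, so that the level of Cmpk1 was 34.4-fold that of Cmpk2. Ctps1, a CTP synthase, also lies on chromosome 4, from 120539868 to 120570276 on the minus strand, and had 34.3 CPM per kilobase. The other CTP synthase gene, Ctps2, had 4.82 CPM per kilobase, and the level of Ctps1 was 7.11-fold that of Ctps2. Both gaps kept their direction per kilobase of coding sequence, at 65.7-fold for Cmpk1 over Cmpk2 and 5.69-fold for Ctps1 over Ctps2.

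Between the uridine and cytidine kinase genes Uck2 and Uck1 there was no such settled order. Uck2, on chromosome 1 from 167222883 to 167285320 on the minus strand, had 13.9 CPM per kilobase and Uck1 had 20.0 CPM per kilobase. The ratio of Uck2 to Uck1 was 0.696 per kilobase of transcript, 0.827 per kilobase of joined exons and 1.78 per kilobase of coding sequence, and so it turned with the divisor. Uckl1, a related kinase-like gene, had 7.28 CPM per kilobase, and the ratio of Uck2 to Uckl1 was above 1 on all 4 scales, from 1.91 to 10.3. Dck, which phosphorylates deoxycytidine, had 31.5 CPM per kilobase.

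The reductase genes carried the highest levels of the 9. Rrm1 lies on chromosome 7 from 102441695 to 102469771 on the plus strand, with an authors' mean of 422 CPM. This is 106 CPM per kilobase of its longest coding transcript, and 77.1 with the model of 1 exon as the divisor, which is not its mRNA. Rrm2, the subunit whose amount follows the cell cycle, lies on chromosome 12 from 24708241 to 24714146 on the plus strand. Its mean was lower before division by length, at 350 CPM, and higher after it, at 160 CPM per kilobase. Per kilobase of the longest coding transcript the ratio of Rrm1 to Rrm2 was 0.662. It stayed below 1 with the coding sequence (0.594), with the model of 1 exon (0.484) and with joined exons, which include that model (0.304). Rrm2b, the small subunit known as a p53 target, had 22.8 CPM per kilobase, and the level of Rrm2 was 6.99-fold that of Rrm2b. This ratio was 3.03 per kilobase of coding sequence and 11.1 with joined exons.

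Tyms, on chromosome 5 from 30058202 to 30073617 on the minus strand, had 19.5 CPM per kilobase, and its reads could be shared with the annotated pseudogene Tyms-ps. Sharing of reads with pseudogenes was not measured for Tyms or for any other member. Tk1, which makes dTMP by salvage of thymidine, had 16.2 CPM per kilobase. The longest Tk1 transcript holds no coding sequence, however, and per kilobase of its longest coding transcript Tk1 had 28.0 CPM. The ratio of Tyms to Tk1 was 0.698 on that scale and between 1.21 and 1.61 on the other 3 scales, so no order is read from it.

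Promoter sequence was looked at for the 8 members with an entry in the RefSeq table for GRCm38.p6, which lists Ctps1 as Ctps with 2 starts. Dhodh had no entry. The 250 bases before each start were searched on both strands. The CCAAT box occurred in 2 of the 9 windows, those of Rrm1 and Rrm2. This is a smaller share than the 33.8% of 32851 promoters of the same length. Rrm1 and Rrm2 are also the members with the highest levels, a coincidence noticed after the levels had been seen. The windows below run from 130 to 31 bases before the start, at chr7:102441565-102441664 for Rrm1 and chr12:24708124-24708223 for Rrm2, on the plus strand of both, with CCAAT in capitals.
Rrm1: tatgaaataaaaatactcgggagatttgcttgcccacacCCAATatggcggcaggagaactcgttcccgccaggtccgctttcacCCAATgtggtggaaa
Rrm2: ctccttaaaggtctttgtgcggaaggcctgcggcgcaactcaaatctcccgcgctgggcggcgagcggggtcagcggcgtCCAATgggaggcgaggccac
The boxes of Rrm1 begin 91 and 45 bases before its start, and the box of Rrm2 begins 50 bases before. Among other motifs, GGGCGG, the GC box, occurred in 7 of the 9 windows of these genes (not in that of Rrm1 or at 1 start of Ctps), against 32.7% of promoters. The windows of the members had a GC content from 46.0% to 72.4%, against 53.2% over all promoters, and its part in this count was not tested. The E-box CACGTG occurred in 1 window, that of Tyms, against 6.02% of promoters. The E2F-type letters TTTCCCGC and TTTGGCGC were found in 0 of the 9 windows, against 0.895% and 0.417% of promoters. Only these exact letters were searched, not shorter or altered forms. With shares this low, 0 matches in 9 windows says little, and no lack of E2F-type sites is read from it. No GC box overlaps a CCAAT box or the E-box, and no match shows that a factor binds there.

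The members were next set among the rest of nucleotide metabolism. Of 30 genes of pyrimidine synthesis, salvage and breakdown, 24 had at least 1 CPM, and their levels per kilobase of transcript ran from 0.912 (Cmpk2) to 248 (Nme2, a nucleoside diphosphate kinase, whose locus overlaps the joint transcript Gm20390). The 6 genes under 1 CPM were Upp2, Cda, Dpyd, Dpys, Upb1 and Tymp, which break down pyrimidines or deaminate cytidine. Other genes of nucleotide breakdown or deamination in the list were at or above 1 CPM, namely Upp1 (1.48 CPM), Nt5m (9.13 CPM), Nt5c (13.7 CPM), Dctd (19.3 CPM) and Samhd1 (66.4 CPM). Dpyd, which encodes the enzyme of the committed step of breakdown, had 0.422 CPM. Of the 24 expressed genes, only Cmpk2 and Upp1 lay below Dhodh per kilobase of transcript, and 3 lay below it per kilobase of coding sequence.

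Purine synthesis was expressed throughout. All 18 purine genes found in the table had at least 1 CPM, with a median of 21.0 CPM per kilobase, and the median member had 21.9 CPM per kilobase. Per kilobase of coding sequence these medians were 54.9 for the purine genes and 82.3 for the members. Paics was the highest at 103 CPM per kilobase and Adss1, a muscle type of adenylosuccinate synthase, the lowest at 5.70 CPM per kilobase. None of the 18 lay below Dhodh per kilobase of transcript, and 1 did so per kilobase of coding sequence. The 5 genes of folate supply examined had a median of 44.1 CPM per kilobase, led by Mthfd2, a mitochondrial folate enzyme, at 202 CPM per kilobase. Shmt1, the cytosolic serine hydroxymethyltransferase, was the lowest of them at 9.97 CPM per kilobase, while the mitochondrial Shmt2 had 87.3 CPM per kilobase.

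**Figure D3:**
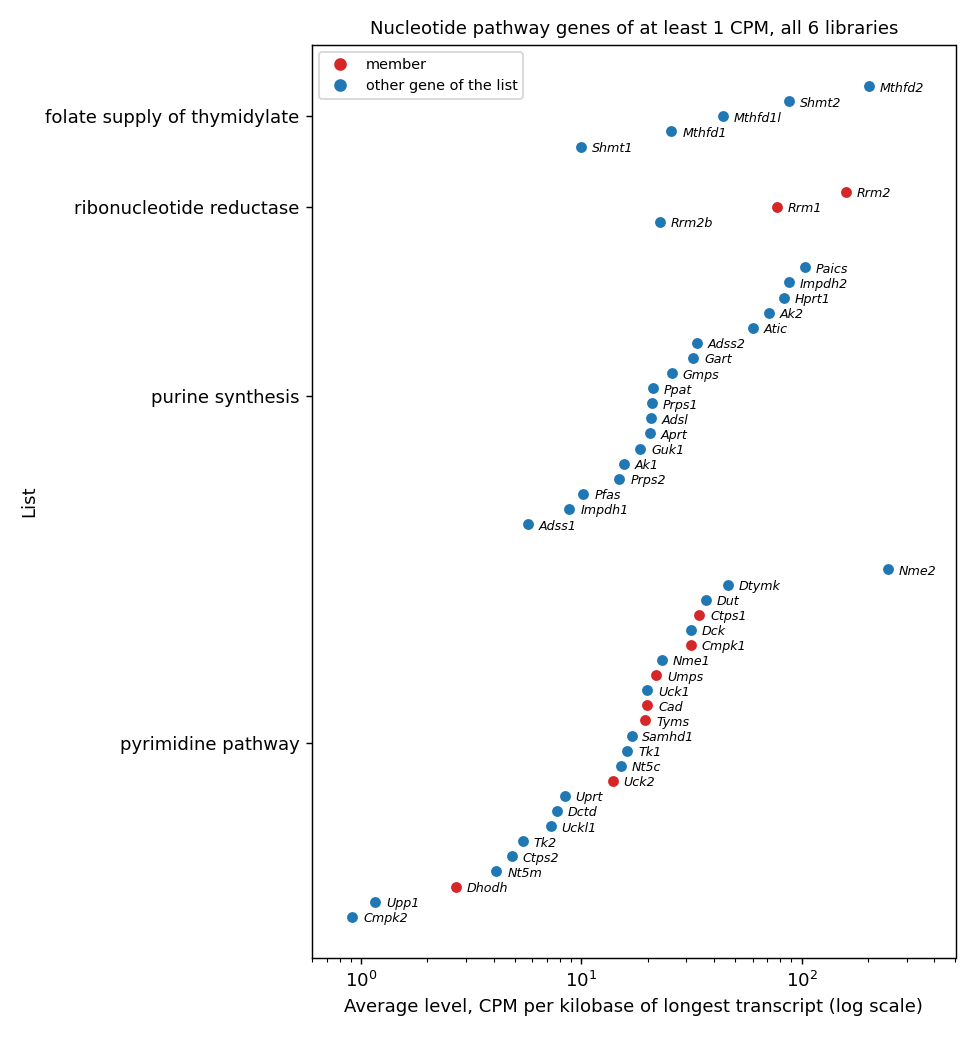
Average level in CPM per kilobase of the longest transcript (log scale) for the genes of at least 1 CPM in 4 lists, from the authors' mean over all 6 libraries, with members in red and the other genes in blue. Dhodh (2.69) is the third gene from the left among pyrimidine genes and lies left of all purine, folate and reductase genes.

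The 9 members lie on 7 chromosomes. Annotated neighbours overlap 3 of them, Umps (the antisense gene Gm15829), Uck2 (Gm37982 and Gm2453, both on the opposite strand) and Rrm1 (Gm45399 on the same strand). The strand setting of the counting is not given in the sources used here. The gene models that were counted may also differ from the models that show these overlaps. Reads from these neighbours may therefore be counted with the members, be set aside or play no part. Several other genes named with a level, among them Uck1, Uckl1, Tk1, Paics and Nme2, also overlap an annotated neighbour.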

How the data were processed

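RNA of B16F10 cells was sequenced from 3 OLO and 3 OZO libraries. Per the methods and the submitters' processing notes, the authors aligned reads to mm10 with HISAT2 (2.1.0), counted them with featureCounts (2.1.1) and ran limma-voom (limma 3.58.1). The authors deposited 1 table of 27179 genes, and the values used from it are the log2 CPM that the authors made with voom from the counts, averaged by them over both groups. The table's fold changes, moderated statistics, log odds and p-values hold the authors' own comparison of OZO with OLO and were not used. No library was analysed on its own, so no test was run, and the design written for such values was not applied.

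The table's 6025 genes without reads share the lowest mean, which with the 0.5 reads that voom adds gave the library size. For 4611 genes with few reads, the mean matched whole reads in 100% of cases (tolerance 0.01). This step was tested on simulated data. Gene positions and lengths came from GENCODE M21 (GRCm38), in which 23882 of 24126 Ensembl identifiers were found. The 27179 rows list Entrez identifiers, and only 24126 of them an Ensembl identifier. The gene models counted may therefore differ from those that gave the lengths and overlaps, and the effect of this was not tested. The 21 purine names include synonyms, of which 3 (Adss, Adssl1 and Hprt) were not in the table. Members and lists were chosen with earlier results of these data known, and the motifs and the gene pairs compared were chosen after the levels were seen. A gene of the folate list is not reported here. Alternatives were other length scales and other sets of ranked genes. Python 3.11.15, numpy 2.4.6, pandas 2.3.3 and matplotlib 3.10.9 were used.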

Additional observations from a re-analysis of the deposited data

How the results depend on the processing

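No paired analysis was possible because the value used is 1 mean per gene over all 6 libraries. For the same reason another normalization, another filter, a replicate block and leaving out each library were not run. The median member had a mean of 6.54 log2 CPM not divided by length. It had 4.45 per kilobase of the longest transcript, 6.36 per kilobase of coding sequence and 4.45 per kilobase of all exons joined or of the longest coding transcript, the last 2 scales being chosen after seeing the data. The median member lay above 90.3% of all rows of the table, 87.5% of genes with reads and 77.7% of genes of at least 1 CPM. Dhodh lay above 67.9%, 58.8% and 26.6% of these sets. The lowest member had a geometric mean of 201 reads per library, and neither counting error nor the spread between libraries was measured.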
